A study of Mus musculus with 8 samples.

Results

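Matrix and fibroblast genes other than collagens were examined in 8 lines of cultured mouse germline stem (GS) cells. The set held 33 protein-coding genes, matched by symbol among the 31010 genes of the expression table. Its rule names genes and uses no measured value, but the genes were chosen with earlier results of these data known. Shares of all genes printed beside counts of the set are thus a description and no independent test. The set covers adhesive and matricellular glycoproteins, proteoglycans, fibre proteins, cross-linking enzymes, proteases and their inhibitors, and genes used as fibroblast or mesenchymal markers. GS cells are spermatogonia that self-renew in culture and were derived in the study from F1 male mice by sorting CD9-expressing cells from mature testes. Each of 4 control lines (29, 37, 44 and 45) came from natural mating, and each of 4 ICSI lines (11, 17, 20 and 21) came from mice born after intracytoplasmic sperm injection, the injection of a single sperm into an oocyte. All 8 lines are labelled wild type (WT) and B6, no age is given here, and no label says whether lines of one group came from separate mice. All 8 line numbers also stand among the numbers over the tail DNA of F1 offspring in the study's supplement. The study does not state in words that a line came from the mouse of that number. The p-values measure only the spread between these lines. The sample titles come in 2 forms, with hyphens (form 1, lines 29, 37, 11 and 17) or with low lines between the words (form 2, lines 44, 45, 20 and 21), and the submitters' notes name other tool versions for each form.

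Extracellular matrix is the network of secreted proteins that surrounds cells, and fibroblasts are its best known source. Collagens give it strength, fibronectin and matricellular proteins link it to cell receptors, lysyl oxidases cross-link its fibres, and metalloproteinases and their tissue inhibitors turn it over. GS cells are usually grown on embryonic fibroblasts. The study's methods on gene expression describe plating GS cell cultures on gelatin to remove these fibroblasts before collection. The step stands with the RNA isolation for PCR and is not repeated in the account of the sequencing libraries, which used another isolation kit. In bulk RNA, fewer fibroblasts and less RNA per fibroblast cannot be told apart.

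The expression values were FPKM (fragments per kilobase of transcript, scaled to the mapped reads of the library), deposited for each line, with 24218897 to 43413243 reads per line recovered from the steps of the values. Of the 33 genes, 32 had a mean of at least 1 FPKM and were among the 12000 genes tested, 21 had a mean of at least 10 FPKM, and 5 had a mean of at least 50 FPKM. Eln, the gene of elastin, was the exception at 0.228 to 0.494 FPKM, on 46 to 131 reads. Defining germ cell markers were abundant in every line, with Ddx4, a germ cell RNA helicase, at 173 to 274 FPKM and Dazl, a germ cell RNA-binding protein, at 257 to 420 FPKM. Lines 29 and 44 stood apart in the set: its FPKM summed to 1702 and 1681 there, to 604 in control line 37 and 487 in control line 45, and to 611, 854, 1288 and 654 in ICSI lines 11, 17, 20 and 21. The main tests for ICSI, form and collagen level are given with and without these lines. Ranges, spreads and the interaction of ICSI with form are given only with them.

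The most abundant genes of the set were Timp1, S100a4, Fn1, Sparc and Vim, in that order of mean FPKM, but each varied more over the lines than it differed in mean from its neighbours in the order. Timp1 (chrX:20870166-20874735 in GRCm38), an inhibitor of metalloproteinases, reached 136 FPKM in control line 29, 77.5 in 37, 254 in 44 and 57.2 in 45, and 73.1, 112, 176 and 73.0 FPKM in ICSI lines 11, 17, 20 and 21. S100a4 (chr3:90603771-90606045), a calcium-binding protein used as a fibroblast marker, was at 183, 47.7, 206 and 68.0 FPKM in control lines 29, 37, 44 and 45 and 53.1, 83.6, 179 and 81.3 FPKM in ICSI lines 11, 17, 20 and 21. Both genes were highest in control line 44 and next highest in ICSI line 20 or control line 29, and their groups overlapped. Fn1 (chr1:71585520-71653200), the gene of fibronectin, was at 146 and 67.6 FPKM in control lines 29 and 37, 148 and 61.8 in 44 and 45, 70.2 and 89.3 in ICSI lines 11 and 17, and 97.9 and 80.8 in 20 and 21. Sparc (chr11:55394500-55423183), a matricellular protein that binds collagen, reached 206 FPKM in control line 29, 42.6 in 37, 159 in 44 and 31.4 in 45, and 42.1, 70.6, 92.5 and 59.9 FPKM in ICSI lines 11, 17, 20 and 21. For these glycoproteins control lines 29 and 44 lay above every other line and control line 45 lay lowest, with the 4 ICSI lines between. Vim (chr2:13573927-13582826), the gene of the intermediate filament vimentin, was at 86.5, 26.1, 148 and 41.8 FPKM in control lines 29, 37, 44 and 45 and 33.4, 50.5, 103 and 51.8 FPKM in ICSI lines 11, 17, 20 and 21.

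**Figure D1:**
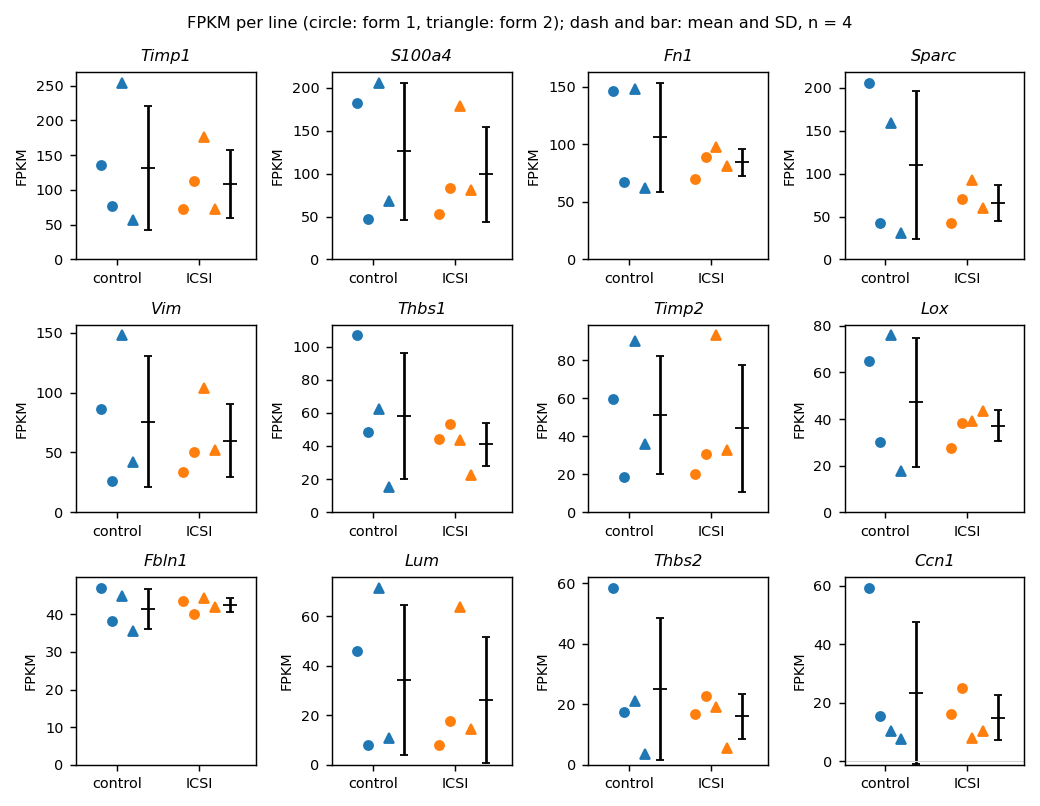
FPKM of 12 genes in each line (control in blue, ICSI in orange; circles are form 1 and triangles form 2), with the mean and standard deviation of 4 lines beside each group. Control lines split into a high and a low pair for most genes (Sparc 206 and 159 against 42.6 and 31.4 FPKM), while Fbln1 stayed between 35.6 and 47.0 FPKM.

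Among the adhesive and matricellular genes, thrombospondins and CCN proteins had their highest level in control line 29. Thbs1 (chr2:118111876-118127133), a secreted regulator of adhesion and TGF-beta activation, was at 107 and 48.7 FPKM in control lines 29 and 37, 62.5 and 15.0 in 44 and 45, 44.1 and 53.4 in ICSI lines 11 and 17, and 43.5 and 22.6 in 20 and 21. Its relative Thbs2 (chr17:14665500-14694235) reached 58.5 FPKM in control line 29, 17.5 in 37, 21.2 in 44 and 3.61 in 45, and 16.7, 22.9, 19.0 and 5.43 FPKM in ICSI lines 11, 17, 20 and 21. Line 29 held the highest value of both and line 45 the lowest, a range of 7.12-fold for Thbs1 and of 16.2-fold for Thbs2, the widest of the set. Ccn1 (chr3:145646976-145649981), an integrin ligand and a known target of YAP, was at 59.3, 15.5, 10.4 and 7.62 FPKM in control lines 29, 37, 44 and 45 and 16.3, 25.1, 8.11 and 10.3 FPKM in ICSI lines 11, 17, 20 and 21. Its relative Ccn2, the connective tissue growth factor, had 22.9 FPKM in control line 29 and 2.56 to 5.79 FPKM in the 7 other lines. For Ccn1 the 4 lines of form 1 (15.5 to 59.3 FPKM) lay above the 4 of form 2 (7.62 to 10.4 FPKM). Tnc (chr4:63959785-64047015), the gene of tenascin C, was at 47.6 and 29.8 FPKM in control lines 29 and 37, 49.2 and 5.88 in 44 and 45, 25.2 and 29.1 in ICSI lines 11 and 17, and 35.3 and 10.1 in 20 and 21. Postn (chr3:54361109-54391037), the gene of periostin, was lower, at 18.7 FPKM in control line 29, 5.93 in 37, 7.15 in 44 and 1.24 in 45, and 5.67, 8.66, 6.31 and 2.13 FPKM in ICSI lines 11, 17, 20 and 21. Control line 45 and ICSI line 21 held the 2 lowest values of Tnc and of Postn, and both lines are of form 2.

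The sequences just before the starts of 4 genes that turn up again in the comparisons of forms are shown so that genes moving in opposite directions can be read side by side. RefSeq promoter entries (GRCm38.p6) matched 21 of the 33 genes. Each line gives the 150 bases before the RefSeq start, 5′ to 3′ on the gene's strand, in a window that overlaps no annotated exon. Capitals mark TATAAA, the TATA box, and CATTCC or its complement GGAATG, the core element bound by TEAD factors, the DNA-binding partners of YAP.
Ccn1: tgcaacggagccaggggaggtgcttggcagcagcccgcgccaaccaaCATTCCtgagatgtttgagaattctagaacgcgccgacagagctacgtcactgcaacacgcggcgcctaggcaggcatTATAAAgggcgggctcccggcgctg
Thbs2: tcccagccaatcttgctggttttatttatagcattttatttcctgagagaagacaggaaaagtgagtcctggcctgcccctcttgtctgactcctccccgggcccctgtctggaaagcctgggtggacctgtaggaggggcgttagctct
Postn: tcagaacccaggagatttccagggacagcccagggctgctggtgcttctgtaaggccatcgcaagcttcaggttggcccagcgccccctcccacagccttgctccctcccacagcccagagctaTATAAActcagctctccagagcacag
S100a4: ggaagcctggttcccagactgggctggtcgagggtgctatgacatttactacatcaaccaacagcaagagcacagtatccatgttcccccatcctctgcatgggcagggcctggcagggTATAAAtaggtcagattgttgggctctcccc
The windows are chr3:145649986-145650135 on the minus strand, chr17:14694263-14694412 on the minus strand, chr3:54360957-54361106 on the plus strand and chr3:90603620-90603769 on the plus strand. The Ccn1 window held TATAAA starting 25 bases and CATTCC starting 103 bases before the start, without overlap between them. Postn and S100a4 held TATAAA starting 26 and 31 bases before the start, and Thbs2 held neither motif. Postn has another RefSeq start, and the window before it (chr3:54359117-54359266) also held neither. Over all windows of the same length, TATAAA on the gene's strand was in 6 of 25 member promoters (24%) and in 4.84% of 32851 promoters. CATTCC on either strand was in 2 of the 25, those of Acta2 and Ccn1 (8%), and in 7.59% of all promoters. GGGCGG, the GC box, on either strand was in 11 of the 25 (44%) and in 28.6% of all promoters. These letter matches are a description and do not show that a factor binds.

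Proteoglycans, which hold water and regulate collagen fibre assembly, varied as widely. Lum (chr10:97565128-97572703), the gene of lumican, was at 46.1, 8.09, 71.4 and 10.9 FPKM in control lines 29, 37, 44 and 45 and 8.12, 17.7, 63.6 and 14.3 FPKM in ICSI lines 11, 17, 20 and 21. Dcn (chr10:97479609-97518143), the gene of decorin, was at 36.6 and 13.6 FPKM in control lines 29 and 37, 30.0 and 4.27 in 44 and 45, 9.64 and 15.2 in ICSI lines 11 and 17, and 20.98 and 4.65 in 20 and 21. Bgn (chrX:73483602-73495933), the gene of biglycan, reached 92.8 FPKM in control line 29, 24.3 in 37, 59.0 in 44 and 15.1 in 45, and 24.5, 32.9, 58.8 and 19.9 FPKM in ICSI lines 11, 17, 20 and 21. Lum was high in lines 29, 44 and 20 only, whereas Dcn and Bgn were highest in line 29 and lowest in line 45. Vcan, the large proteoglycan versican, stayed between 1.39 and 7.17 FPKM.

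Fibre proteins and cross-linking enzymes included the steadiest gene. Fbln1 (chr15:85205949-85286535), a matrix fibulin, was at 47.0, 38.1, 44.9 and 35.6 FPKM in control lines 29, 37, 44 and 45 and 43.6, 40.1, 44.4 and 41.9 FPKM in ICSI lines 11, 17, 20 and 21, a range of 1.32-fold. Fbln2, another fibulin, was at 63.4 and 24.3 FPKM in control lines 29 and 37, 40.0 and 10.5 in 44 and 45, 21.2 and 24.8 in ICSI lines 11 and 17, and 28.8 and 16.8 in 20 and 21. Fbn1, the gene of fibrillin of the microfibrils, reached 25.7 FPKM in control line 29, 6.85 in 37, 22.0 in 44 and 6.49 in 45, and 7.76, 11.6, 14.3 and 8.90 FPKM in ICSI lines 11, 17, 20 and 21. Fbln1 thus kept its level in lines where its relative Fbln2 and Fbn1 moved by 6.01-fold and 3.97-fold. Lox, which cross-links collagen and elastin, was at 65.0, 29.9, 76.03 and 17.6 FPKM in control lines 29, 37, 44 and 45 and 27.7, 38.4, 39.3 and 43.4 FPKM in ICSI lines 11, 17, 20 and 21. Loxl2, a relative of Lox, was at 23.2 and 6.91 FPKM in control lines 29 and 37, 22.2 and 6.31 in 44 and 45, 7.65 and 10.9 in ICSI lines 11 and 17, and 9.32 and 12.5 in 20 and 21. For Lox and Loxl2, control lines 29 and 44 were again highest. The remaining genes of this kind were low, Loxl1 at 2.73 to 12.4 FPKM and Fbln5 at 1.00 to 4.90 FPKM.

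Proteases and their inhibitors were mostly high in ICSI line 20 as well as in control lines 29 and 44. Mmp2, a metalloproteinase that cuts denatured collagen, was at 69.7 FPKM in control line 29, 13.4 in 37, 55.8 in 44 and 11.2 in 45, and 16.5, 26.2, 71.3 and 14.4 FPKM in ICSI lines 11, 17, 20 and 21. Mmp14, the membrane protease that activates it, was at 16.6, 4.90, 19.4 and 6.02 FPKM in control lines 29, 37, 44 and 45 and 5.41, 7.11, 17.3 and 5.48 FPKM in ICSI lines 11, 17, 20 and 21. Line 20 had the highest Mmp2 of all lines, and its Mmp14 lay between those of control lines 29 and 44. Timp2, an inhibitor that also takes part in Mmp2 activation, was at 59.3 and 18.3 FPKM in control lines 29 and 37, 90.4 and 36.1 in 44 and 45, 19.8 and 30.7 in ICSI lines 11 and 17, and 93.2 and 32.5 in 20 and 21. Timp3, an inhibitor held in the matrix, reached 18.9 FPKM in control line 29, 4.90 in 37, 22.1 in 44 and 6.68 in 45, and 6.64, 10.3, 11.99 and 10.8 FPKM in ICSI lines 11, 17, 20 and 21. Timp2 was highest in ICSI line 20 and control line 44, which are both of form 2.

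Cytoskeletal genes of contractile cells, mesenchymal receptors and transcription factors all had means below 10 FPKM. Acta2, the gene of smooth muscle actin, was at 10.5, 4.54, 4.52 and 1.13 FPKM in control lines 29, 37, 44 and 45 and 4.40, 5.33, 3.78 and 2.09 FPKM in ICSI lines 11, 17, 20 and 21. Tagln, an actin-binding protein of smooth muscle, was at 10.2 and 4.72 FPKM in control lines 29 and 37, 4.82 and 1.39 in 44 and 45, 5.01 and 6.58 in ICSI lines 11 and 17, and 4.26 and 3.43 in 20 and 21. Prrx1, a mesenchymal transcription factor, was at 3.90 FPKM in control line 29, 1.00 in 37, 4.67 in 44 and 1.39 in 45, and 1.12, 1.66, 3.31 and 1.58 FPKM in ICSI lines 11, 17, 20 and 21. Acta2 and Tagln followed the thrombospondins, with line 29 highest and line 45 lowest, and Prrx1 followed Lum, with line 44 highest and line 37 lowest. Exons of Tagln overlap those of Pcsk7 on the other strand, and whether the counting used strand is uncertain because the labels and the methods name different library kits. Pdgfra and Pdgfrb, receptors for platelet-derived growth factors, were at 2.68 to 6.05 and 1.15 to 6.63 FPKM, and Twist1, a mesenchymal transcription factor, at 5.82 to 11.0 FPKM.

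**Figure D2:**
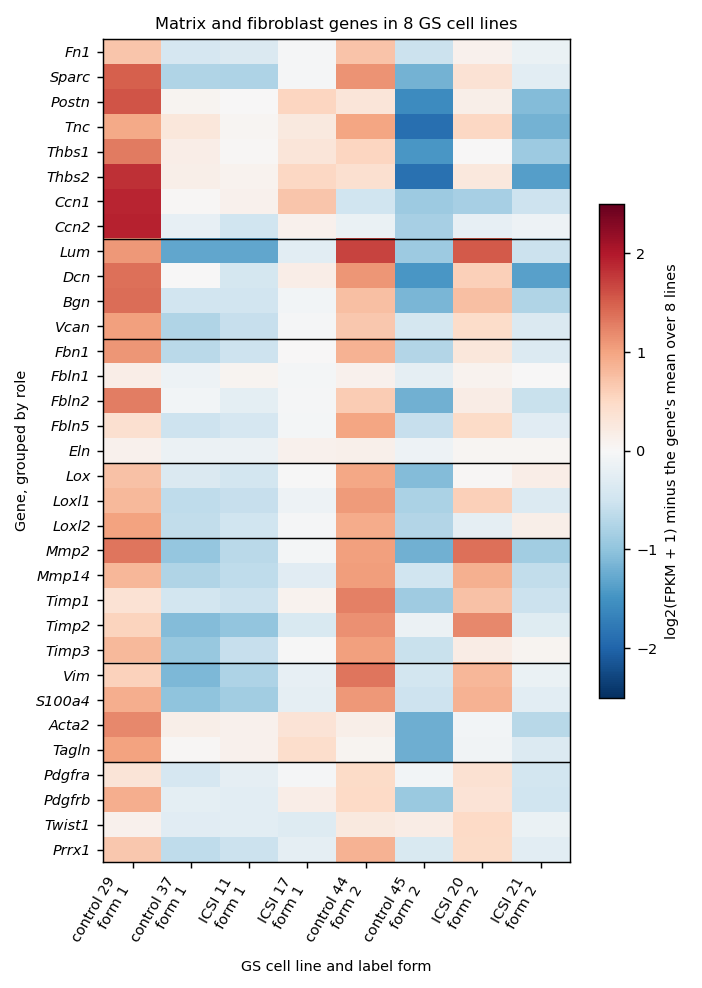
Each row is a gene and each column a line, and the colour gives log2(FPKM + 1) minus the gene's mean over the 8 lines; horizontal lines separate roles. Columns 29 and 44 are red in most rows and columns 37 and 45 mostly blue, with Ccn1 red in line 29 and blue in line 44.

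Most genes of the set followed a shared order of lines. The highest value was in control line 29 for 16 genes, in control line 44 for 14 and in ICSI line 20 for 3 (Mmp2, Timp2 and Twist1), and the lowest was in control line 45 for 22 genes and in control line 37 for 9. All 33 genes were higher in control line 29 than in 37, with a median ratio of 3.24, where 43% of the 12000 tested genes were higher. All 33 were also higher in control line 44 than in 45, with a median ratio of 3.54, against 46.7% of tested genes. Within the ICSI group, 31 genes were higher in line 17 than in 11 (median ratio 1.49; 42.9% of tested genes) and 28 in line 20 than in 21 (median ratio 2.08; 53.4%). Each pair shares its group and form, so these differences lie within the groups and forms compared. In each pair the line with the higher sum of the set is named first. The direction thus follows from the set's own values, and the shares of all genes are no equal background for it. The genes are also not independent of each other. The highest line was over 4 times the lowest for 25 genes, against 6.83% of tested genes. The median range was 5.42-fold for the 32 tested genes of the set and 1.66-fold for all tested genes. The standard deviation of log2 values was larger in control than in ICSI lines for 32 of 33 genes, where it was larger for 59.8% of tested genes. Control lines 29 and 44 held the highest value of 30 genes, and control lines 37 and 45 the lowest of 31. The ranges and the control spread thus rest on these lines and were not computed without them.

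The study asked whether GS cells of ICSI offspring express genes differently from control GS cells. No gene of the set passed the test. With limma on log2(FPKM + 1) and Benjamini-Hochberg adjustment over 12000 genes, 0 of 32 tested genes and 0 of all genes (0%) passed an adjusted p of 0.05. At an unadjusted p under 0.05 there were 0 of the 32 and 55 of all genes (0.458%), and limma-voom on the recovered reads also called 0 genes. The differences, ICSI minus control on the log2(FPKM + 1) scale, ran from -0.52 to 0.06 with a median of -0.23, and the median over all tested genes was -0.01. Of the 32, 30 were below 0, as were 55.7% of all genes. No gene of the set had groups that did not overlap, which 0.442% of tested genes had.

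**Figure D3:**
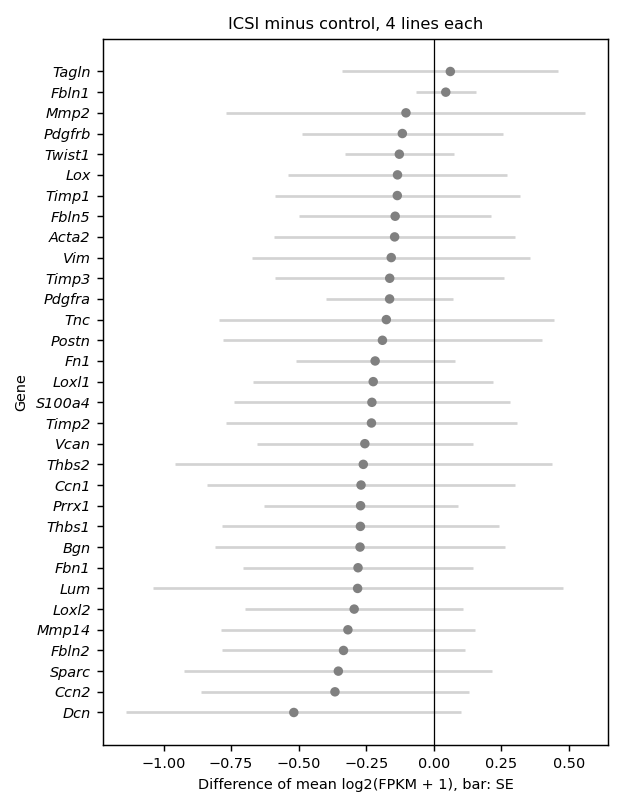
Difference between the means of 4 ICSI and 4 control lines in log2(FPKM + 1) for the 32 tested genes, with standard errors as bars. The points run from -0.52 (Dcn) to 0.06 (Tagln), and every bar crosses 0.

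In each role the differences were smaller than their standard errors. Among the secreted glycoproteins, Fn1 was at 106 ± 47.7 FPKM in control against 84.5 ± 11.9 in ICSI lines (SD, n = 4 each), a log2 difference of -0.22 ± 0.29 (SE). Sparc was at 109.8 ± 86.4 FPKM in control against 66.3 ± 21.1 in ICSI lines (SD, n = 4 each), a log2 difference of -0.35 ± 0.57. The matricellular Thbs1, Tnc and Ccn2 differed by -0.27 ± 0.51, -0.18 ± 0.62 and -0.37 ± 0.50 on the log2 scale. Dcn had the smallest p of the genes that were lower in ICSI lines, at -0.52 ± 0.62 (limma, unadjusted p = 0.424). Fbln1 had the smallest p of the 2 that were higher, at 0.04 ± 0.11 (limma, unadjusted p = 0.698), and Tagln was the other. The cross-linking enzyme Lox differed by -0.13 ± 0.41, the protease Mmp2 by -0.10 ± 0.66 and the inhibitor Timp1 by -0.13 ± 0.45. Of the marker genes, Acta2 differed by -0.14 ± 0.45, Vim by -0.16 ± 0.51 and Pdgfra by -0.16 ± 0.23. Eln was not tested, and without the filter on low values its difference was 0.02 ± 0.09.

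The sign of the ICSI difference depended on single control lines. Without control line 29, 22 of the 32 genes were above 0 and the median was 0.04. Without control line 44, 14 were above 0 with a median of -0.02, and without control line 45 none was, with a median of -0.52. Without both 29 and 44, 31 of 32 were above 0 with a median of 0.53, where 43.1% of all genes were above 0. In that last fit 6 genes of the set had an unadjusted p under 0.05, against 1.34% of all genes, and none passed adjustment. Lines 29 and 44 were left out because the set was highest there, so the turn to positive follows from that choice. The lines were not chosen on all genes, so the shares of all genes are no equal background for it. Whether the ICSI difference changed with form was tested by an interaction, which called 0 of 32 genes and 0 of 12000 (0%), with 0 of the 32 and 1.23% of all genes at an unadjusted p under 0.05. The interaction was above 0 for 31 of the 32 genes, with a median of 0.51, and for 51% of all genes.

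Fibrillar collagens were not in the set, and their level was used to order the lines. The level was the mean log2(FPKM + 1) of Col1a1, Col1a2 and Col3a1, the chains of collagens I and III. It was 6.90, 4.91, 6.52 and 4.36 in control lines 29, 37, 44 and 45 and 4.98, 5.53, 5.71 and 5.27 in ICSI lines 11, 17, 20 and 21. All 32 tested genes of the set had a positive correlation with this level over the 8 lines, with Pearson's r from 0.352 for Twist1 to 0.995 for Sparc and a median of 0.850. The median r over the 11997 genes compared was -0.0806. At least 0.9 was reached by 11 of 32 genes of the set and by 1.12% of all genes. Sparc had r = 0.995 and Spearman's rho = 0.976 (exact permutation test over 40320 pairings, two-sided p = 4.96e-05 and 0.000397, adjusted p = 0.0558 and 0.122). Fbn1 had r = 0.983 and rho = 1.00, with the same adjusted values. No gene among the 11997 passed adjustment at 0.05 in this exact permutation test. The smallest p obtained, 2.48e-05, is also the smallest that 40320 pairings can give. Several genes would have to reach it before any could pass, so the lack of calls does not show that a relation is absent. Lines 29 and 44 were the 2 farthest from the median level, and without them the median r was 0.742, r was 0.980 for Sparc and 0.125 for Twist1, and 4 genes of the set reached 0.9, against 0.558% of all genes. After the mean of each form was subtracted, the median r was 0.947 and 22 of 32 genes reached 0.9, against 2.64% of all genes.

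**Figure D4:**
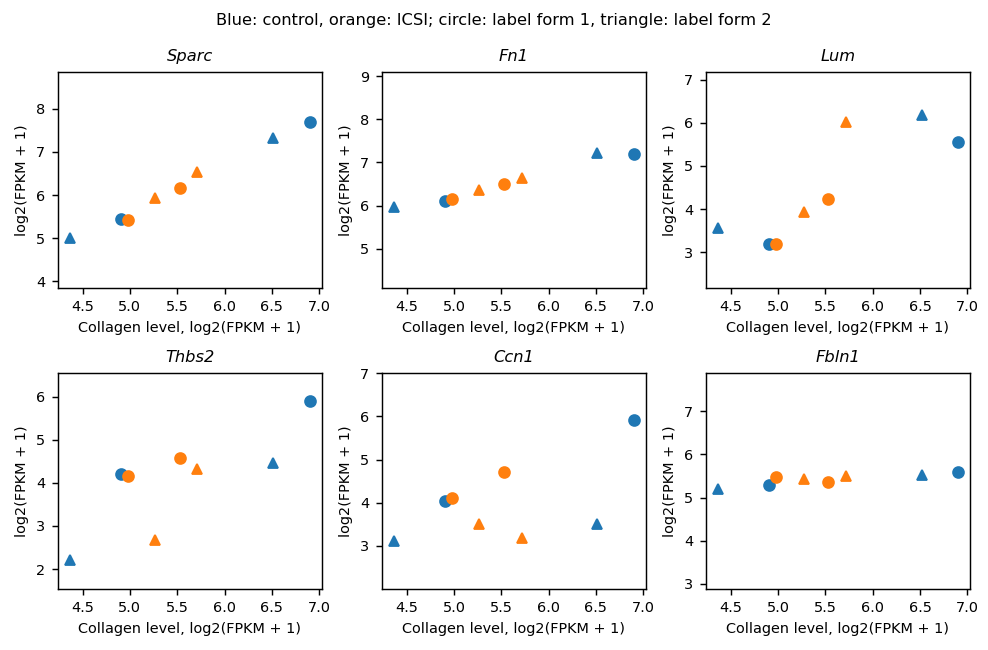
log2(FPKM + 1) of 6 genes against the collagen level of the same line (blue control, orange ICSI; circles form 1, triangles form 2), with the same vertical span in each panel. Sparc and Fn1 lie close to a single line for both forms (r = 0.995 and 0.984), Thbs2 and Ccn1 lie lower in form 2, Lum lies higher there, and Fbln1 is almost flat.

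The size of the relation differed from gene to gene. A limma fit with group and form as covariates, added after the data were seen, gave the change in log2(FPKM + 1) per unit of collagen level. It called 25 of 32 genes of the set, all with positive slopes, against 2.22% of the 12000 genes with positive slopes. Slopes were steepest for Lum (1.29 ± 0.18, SE), Mmp2 (1.18 ± 0.20) and Sparc (1.12 ± 0.05), intermediate for Vim (0.84 ± 0.10) and Fn1 (0.56 ± 0.05), and shallowest for Fbln1 (0.14 ± 0.05) and Twist1 (0.13 ± 0.09). Sparc had the smallest adjusted p of the set, 0.000158 in limma. Those that did not pass were Fbln1, Timp1, Ccn1, Ccn2, Pdgfra, Twist1 and Tnc. The number called rested on the extreme lines, being 1 without control line 29 (Sparc, against 0.075% of all genes), 5 without 44, 3 without 45 and 10 without 37 (0.258%, 0.167% and 0.292% of all genes), and 0 without both 29 and 44 (0%). The slopes of all 32 stayed above 0 in each of these fits. The shares of all genes include the 3 collagens that make up the level, which all passed in the fit with all lines. Given as a ratio to the summed FPKM of the 3 collagens, Sparc stayed between 0.442 and 0.577 over the 8 lines, a range of 1.31-fold, and Fbn1 between 0.0710 and 0.104. The same ratio ranged by 4.28-fold for Thbs2, 4.65-fold for Lum, 5.01-fold for Ccn1 and 6.25-fold for Twist1, with its extremes in different lines for each of these genes.

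The forms of the sample titles were compared because the submitters' notes name different tool versions for them. The study's methods give only the versions noted for form 1, so whether the versions differed is uncertain. Ccn1 was the 1 gene of the set called, and it was lower in form 2 by a log2 difference of -1.37 ± 0.37 (SE, limma, adjusted p = 0.0390). Across all genes 16% were called, 10.2% higher and 5.76% lower in form 2, so 1 of 32 is below the background. Ccn1 was also the 1 gene of the set whose forms did not overlap, against 26.8% of tested genes. Leaving out 1 line at a time gave -1.68 to -0.94 for Ccn1 and 0 to 2 called genes of the set. The call of Ccn1 held in 3 of these 8 fits, without control line 29, control line 37 or ICSI line 21, and was lost in the other 5 (limma, adjusted p = 0.0729 to 0.100) and without the filter on low values (limma, adjusted p = 0.0875). Read depth differed with form as well, at 24218897 to 26108199 recovered reads in form 1 and 31786268 to 43413243 in form 2. The form of the title, the depth and any difference in tool versions cannot be told apart.

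Some genes of the set moved apart between forms once the mean collagen level was held equal. With group and collagen level as covariates, a fit added after the data were seen, limma called 12 of 32 genes of the set, 6 lower and 6 higher in form 2. The backgrounds were 23.3% of all genes called, 9.63% lower and 13.7% higher. The collagens that make up the level did not keep the same balance in both forms. Because the level is the mean of these 3 genes, their differences in this fit must sum to 0 and are not separate results. Col3a1 was higher in form 2 (0.35 ± 0.09, adjusted p = 0.0284 in limma), while Col1a1 (-0.12 ± 0.12) and Col1a2 (-0.23 ± 0.08) did not pass. An equal level is thus an equal mean and not an equal make-up. Lower in form 2 were the matricellular Ccn1 (-1.31 ± 0.24, adjusted p = 0.0121 in limma), Thbs2 (-1.17 ± 0.23), Postn (-1.004 ± 0.175) and Thbs1 (-0.82 ± 0.16), and the contractile Acta2 (-0.84 ± 0.12) and Tagln (-0.73 ± 0.10). Higher in form 2 were the inhibitors Timp2 (1.03 ± 0.23, adjusted p = 0.0190 in limma) and Timp3 (0.44 ± 0.12), the proteoglycan Lum (1.03 ± 0.28), and the mesenchymal markers Vim (0.86 ± 0.16), S100a4 (0.69 ± 0.17) and Prrx1 (0.43 ± 0.13). Sparc and Fn1 differed by 0.14 ± 0.08 and 0.12 ± 0.08 and did not pass. Other genes of the named roles did not pass either. They were Ccn2 (-0.59) and Tnc (-0.67), the inhibitor Timp1 (0.36), the proteoglycans Dcn (-0.44), Bgn (-0.08) and Vcan (0.25), and the mesenchymal Pdgfra (0.21), Pdgfrb (-0.21) and Twist1 (0.40). Most of these roles were thus called only in part, and the 6 higher genes are near their background. Each of the 12 kept its direction when any 1 line was left out, but the number called ran from 0 without control line 37 and 1 without 45 to 18 without ICSI line 21, where 0.325%, 0.7% and 35.2% of all genes were called. It was 0 without both 29 and 44, with 0.05% of all genes called. Ccn1 passed in 7 of those 8 fits, Acta2, Tagln, Postn and Vim in 6, Thbs1 in 5, Thbs2 in 4, Timp2 in 3, Lum, S100a4 and Timp3 in 2 and Prrx1 in 1.

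**Figure D5:**
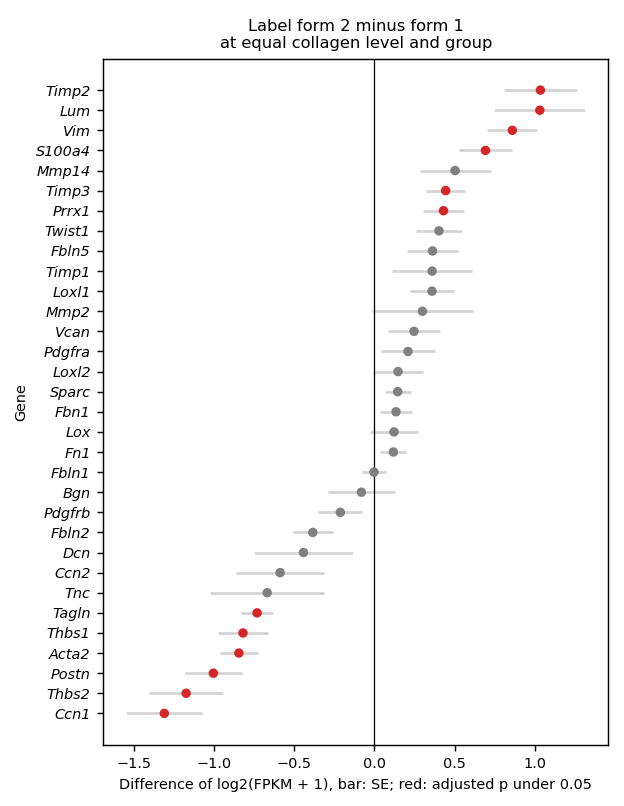
Difference between form 2 and form 1 in log2(FPKM + 1) at equal collagen level and group for the 32 tested genes, with standard errors as bars and called genes in red. Ccn1 (-1.31), Thbs2 (-1.17) and Postn (-1.004) lie at one end and Timp2 and Lum (both 1.03) at the other.

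Markers of other cells were set beside these differences. Of 5 macrophage markers, Ptprc, Adgre1 and Csf1r were at most 0.668 FPKM in every line, while Lyz2, the lysozyme of macrophages, was at 44.1, 34.8, 3.36 and 13.2 FPKM in control lines 29, 37, 44 and 45 and at 22.8, 19.2, 4.74 and 9.72 FPKM in ICSI lines 11, 17, 20 and 21. Like Ccn1, Lyz2 was lower in form 2, with a log2 difference of -1.92 (limma, adjusted p = 0.0173), while Cd68, the other macrophage marker tested, did not pass (0.36, limma, adjusted p = 0.439) and was highest in control line 44 of form 2, at 16.9 FPKM. The 5 markers, of which Lyz2 was the highest in most lines, summed to 27.9 to 49.7 FPKM in form 1 and to 12.03 to 20.7 FPKM in form 2. Of 10 germ cell markers, 9 had a difference above 0 in form 2 and 7 were called higher, against 10.2% of all genes. Among the 7 were Ddx4 (0.37) and Dazl (0.52). The part of the macrophage and germ cell markers in the differences of the set was not tested. The smooth muscle marker Myh11 was at 0.454 to 0.901 FPKM. Of 6 Leydig cell markers, Star was at 0.594 to 1.77 FPKM, the enzyme gene Cyp17a1 was listed at 0 in all lines, and the others were at most 0.331 FPKM. Of 5 endothelial markers, Cdh5 was at 0.611 to 4.92 FPKM, Kdr at 0.226 to 2.93 and Pecam1 at 1.16 to 2.60, and Tek and Emcn were at most 1.08 FPKM. Kdr was higher in form 2, with a log2 difference of 0.93 (limma, adjusted p = 0.0224). Among 6 Sertoli cell markers, the hormone gene Amh was at 0.0183 to 0.0521 FPKM. The transcription factor genes Sox9 (0.832 to 5.46 FPKM) and Wt1 (0.929 to 3.31 FPKM) from that list were called between forms, with log2 differences of 1.03 for Sox9 and -0.82 for Wt1 (limma, adjusted p = 0.0242 and 0.0150). The 6 smooth muscle and peritubular markers summed to 7.82 to 17.3 FPKM in control and 10.0 to 11.7 FPKM in ICSI lines, and none of the 2 tested was called in either comparison. The 2 tested were Smtn, at 5.68 to 15.3 FPKM, and Des, at 0.567 to 1.71 FPKM. Besides Myh11, the rest (Actg2, Cnn1 and Myocd) were at most 0.415 FPKM. Which cells the RNA of Acta2 and Tagln came from was not tested.

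Other genes of the matrix were counted in the same fits. There 0% of all genes passed for ICSI, 16% for form and 2.22% for a positive slope on the collagen level. Positive slopes that passed fell to 9 of all genes without control line 29 and to 0 without both 29 and 44. Of 38 tested genes for further matrix, fibre and remodelling proteins, 0 passed for ICSI and 4 for form, 2 higher and 2 lower in form 2, with the largest difference in each direction in the growth regulator Ccn3 (1.78) and the thrombospondin Thbs3 (-0.46). In the added fit, 17 of the 38 had a positive slope on the collagen level that passed, among them Pcolce, an enhancer of procollagen processing (0.80), and Serpinh1, a collagen chaperone (0.67). Basement membrane genes, which encode the laminins and their partners, gave 1 such slope among 11 tested (Lama4, 0.50), and 2 called between forms, Nid2 (0.91) and Hspg2 (-0.62). Among TGF-beta pathway genes, the co-receptor gene Tgfbr3 had such a slope (0.46), and Tgfb1, the gene of a ligand, was higher in form 2 by 1.15. None of the basement membrane or TGF-beta genes passed for ICSI, and 0 of the 10 germ cell markers had a slope on the collagen level that passed.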

How the data were processed

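RNA was sequenced from 8 GS cell lines, 4 control and 4 ICSI, with 76-base single reads. The authors trimmed reads with cutadapt, aligned them to mm10 with STAR and GENCODE M25, and counted them with HTSeq; the submitters' notes name cutadapt 3.4, STAR 2.7.9a and HTSeq 0.13.5 for form 1 and cutadapt 1.16, STAR 2.6.0c and HTSeq 0.11.2 for form 2. The study's methods give only the versions noted for form 1, so those used for form 2 are uncertain. The authors deposited FPKM values per line, which were used here, with log2 fold changes and p-values from DESeq2, which were not used. The labels name another library kit than the methods, so strandedness is uncertain; 11 of the 33 genes have an exon that overlaps an exon of another gene on the other strand. Groups came from the titles, and columns were matched to lines by line number.

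Genes whose mean reached 1 FPKM were tested on log2(FPKM + 1), which understates changes of low genes, with limma 3.58.1 in R 4.3.3 (moderated, with trend, two-sided) and Benjamini-Hochberg adjustment over 12000 genes, at 0.05. FPKM values gave whole reads (within 0.01) for 98.2% of tested genes with GENCODE M21 exon lengths, and for all 33 genes of the set, so limma-voom was run on those reads as an alternative. Correlations used exact permutation over all pairings of the 8 lines. Gene positions are from GENCODE M21 (GRCm38). Fits were tested on simulated data. The genes of the set and the marker lists were chosen with earlier results of these data known. Values in every line are printed for genes whose mean reached 10 FPKM and for genes called, and ICSI differences for 13 genes chosen by role and the smallest p in each direction; others are named by range. Alternatives were a pseudocount of 0.1, no filter, quantile normalization, reads, form or collagen covariates, and leaving out lines. A result of the TGF-beta pathway list is not reported here.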

Additional observations from a re-analysis of the deposited data

Results flagged for a closer look

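In 4 of 66 groups of 4 lines, 1 line lay far from the others, by Dixon's gap test at 95%; chance flags about 1 in 20 groups, and the genes are not independent of each other. In control line 29, Ccn1 was at 59.3 FPKM where the 3 other control lines had 7.62 to 15.5, and Ccn2 was at 22.9 FPKM where the others had 2.56 to 4.64. Both encode CCN proteins, and no cause was tested. In ICSI line 20, Mmp14 was at 17.3 FPKM where the 3 other ICSI lines had 5.41 to 7.11, and Twist1 was at 11.0 FPKM where the others had 5.82 to 6.57.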

How the results depend on the processing

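No paired analysis was possible because control and ICSI lines share no replicate numbers. All limma results on FPKM assume equal precision of the lines, and 4 lines a group limit what can be called. A pseudocount of 0.1 and quantile scaling changed no count for the set beyond 1.5 times, nor did limma-voom, which was run for ICSI and form only, and the cause of the changes listed here was not tested. Without the filter on low values, 1 gene of all passed for ICSI, and for form 0 of the set and 1255 of all genes passed. Quantile normalization gave 166 genes with a slope on the collagen level and 21 of the set; it changed the split of all form calls to 1019 higher and 972 lower, from 1226 and 691.

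Leaving out control lines 29 and 44, chosen after the data were seen, gave 401 genes for form, 0 of the set and 6 of all genes for form at equal collagen level, and 0 of the set and 0 of all genes for the slope. The ICSI differences (log2) then turned positive, to 0.37 for Fn1, 0.79 for Sparc, 0.46 for Dcn, 0.51 for Thbs1, 0.65 for Lox, 1.02 for Mmp2, 0.60 for Timp1, 0.33 for Ccn2, 0.46 for Acta2, 0.72 for Vim, 0.16 for Pdgfra and 0.71 for Tnc. With form and collagen level as covariates, they were 0.091 for Lox, 0.25 for Mmp2, 0.089 for Timp1, 0.039 for Acta2, 0.10 for Vim and 0.10 for Tnc, and limma-voom gave 0.0032 for Acta2. None of these passed adjustment. Lines 29 and 44 were the control lines highest in the set, so the turn to positive without them follows from the choice.

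Leaving out 1 line at a time gave, for form, 0 to 2 genes of the set and 210 to 2691 of all genes, for form at equal collagen level 0 to 18 and 39 to 4220, and for the slope 1 to 29 and 9 to 626. ICSI differences then ran from -0.80 to 0.089 for Sparc, -0.80 to 0.11 for Thbs1, -0.52 to 0.16 for Lox, -0.58 to 0.33 for Mmp2, -0.45 to 0.26 for Timp1, -0.70 to 0.21 for Ccn2, -0.58 to 0.23 for Acta2, -0.56 to 0.26 for Vim, -0.83 to 0.19 for Tnc and -0.023 to 0.11 for Fbln1, with 0 called in every fit. Correlations of at least 0.9 with the collagen level numbered 10 to 17 in the set and 146 to 229 over all genes; as deviations from form means 22 and 317, and without lines 29 and 44, 4 and 67.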
